A study of Homo sapiens with 6 samples.

Results

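The genes described here are markers and regulators of epithelial-mesenchymal transition (EMT): CDH1, EPCAM, CDH2, VIM, FN1, ZEB1, ZEB2, SNAI1, SNAI2 and TWIST1. They were taken by name after Ensembl identifiers were matched to symbols, and all 10 were found among the 58174 genes of the expression table. The values came from RNA sequencing of AGS, a human cell line labelled as stomach and known as a gastric adenocarcinoma line. There were 3 libraries of cells given a negative control siRNA (si-NC) and 3 of cells given an siRNA against FTO (si-FTO), an RNA demethylase that acts on N6-methyladenosine. Their genotype label differed from this, reading wild type under si-NC and FTO-/- under si-FTO. The titles and the study's methods name an siRNA, and the titles set the groups used here. Total RNA was made into stranded libraries, and no other treatment or time was given in the labels.

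In EMT, epithelial cells lose cell-cell adhesion through E-cadherin and gain the motility and filaments of mesenchymal cells. Transcription factors of the SNAIL, ZEB and TWIST families repress epithelial genes by binding E-box motifs in their promoters, while miR-200 family microRNAs repress ZEB1 and ZEB2 in epithelial cells. In gastric cancer, loss of E-cadherin is best known from the diffuse type.

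Each group was represented by 1 mean in TPM, a unit of transcript abundance that corrects for transcript length, so levels may be ordered between genes within a group. Values of single libraries were not used here, so no mean has an error, no test between libraries was made, and the depth is unknown. Differences are given as the log2 ratio of si-FTO over si-NC after adding 1 TPM to both means, a scale that understates the change of low genes. Genes with a mean of at least 0.5 TPM in at least 1 group were compared, 20493 in all, and a gene is called past the fold where this log2 ratio reached 1 in size. Where a pair of TPM values stands without group names, the first is si-NC. Gene positions are on GRCh37. The study's methods give at least 3 independent experiments for its data in general. Whether the 3 libraries of a group came from separate cultures was not given.

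The depleted gene itself was lower: FTO (ENSG00000140718) had a mean of 33.1 TPM in si-NC against 7.27 TPM in si-FTO. This left 21.9% of its level, a log2 ratio of -2.05. FTO RNA was therefore reduced and not absent in the libraries labelled FTO-/-.

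The label of a gastric epithelial line was checked against 18 gastric and general epithelial genes, and many of its defining markers were at or near 0. The trefoil factor genes TFF1 and TFF3 and the intestinal factor CDX1 were listed at 0 in both groups, and KRT19, TFF2, MUC5AC and MUC6 stayed below the level for comparison in both. CLDN18, whose stomach form is a gastric marker, had 0.627 and 0.759 TPM. CDX2, GATA4 and SOX2, which encode transcription factors of gut development, had 18.1, 37.0 and 13.2 TPM in si-NC and were listed at 0 in si-FTO. GATA6 had 20.3 TPM in si-NC against 2.54 TPM in si-FTO. The simple-epithelial keratins differed in the opposite direction. KRT8 had 10.8 TPM in si-NC against 3139 TPM in si-FTO, KRT18 had 52.1 and 1851 TPM, and KRT7 was listed at 0 in si-NC with 253 TPM in si-FTO. MUC1, a membrane mucin, had 1.71 TPM in si-NC against 31.0 TPM in si-FTO. Of the 18 genes 11 were compared, with 4 higher and 5 lower past the fold in si-FTO (11.4% and 17.0% over all genes), and their summed level was 159 TPM in si-NC against 5278 TPM in si-FTO, led by KRT18 and KRT8 respectively.

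Markers of other cell types were low, with a few exceptions. Among 8 fibroblast genes the summed level was 17.0 TPM in si-NC against 45.6 TPM in si-FTO, COL1A1 being the most abundant in both at 10.3 and 36.4 TPM. The fibroblast genes COL1A2 and THY1 stayed under the level for comparison, 2 of the 6 compared were higher past the fold (PDGFRB and COL1A1) and 2 lower (PDGFRA and COL3A1), against 11.4% and 17.0% of all genes. PTPRC, which marks leukocytes, was listed at 0 in both groups, and CD68, a macrophage marker, had 1.49 TPM in si-NC against 6.42 TPM in si-FTO. Of 4 endothelial genes 3 were matched, and CDH5 reached 40.9 TPM in si-FTO while KDR was listed at 0 there and VWF was at 0.0537 TPM. The part of these genes in the results was not tested, and fewer cells of a type and less RNA per cell cannot be told apart in such bulk samples.

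Across the whole table, 77 of the 6955 genes that reached 20 TPM in si-NC had a listed value of 0 in si-FTO, and the reverse held for 38 of the 6714 that reached 20 TPM in si-FTO. This level was chosen after the values were seen. Differences between the group means were therefore broad and took in genes of cell identity such as GATA4 and KRT7, listed at 0 in opposite groups. Whether both groups held the same cell line cannot be told from these means, although all libraries are labelled AGS. Each ratio of si-FTO over si-NC is thus a difference between libraries so labelled, and the part of FTO depletion in it was not tested. The counts of EMT genes are given beside the share of all genes.

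All 10 EMT genes passed the minimum for comparison, and none was listed at 0. In si-FTO 6 of the 10 were lower past the fold (CDH2, SNAI2, TWIST1, FN1, CDH1 and ZEB2), against 17.0% of all genes compared (3492 of 20493). None of the 10 was higher past the fold, against 11.4% of all genes (2340), and in either direction the share over all genes was 28.5% (5832). The other 4, EPCAM, VIM, SNAI1 and ZEB1, did not pass it. By sign alone 7 of the 10 were lower and 3 higher, and 12279 of all genes compared were lower and 8214 higher. The excess of lower over higher genes past the fold was small under both normalizations, with 2887 lower and 2786 higher after median-ratio scaling and 2902 and 2803 after quantile normalization. It stayed large with 0.1 TPM added, at 5147 lower and 3280 higher.

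**Figure D1:**
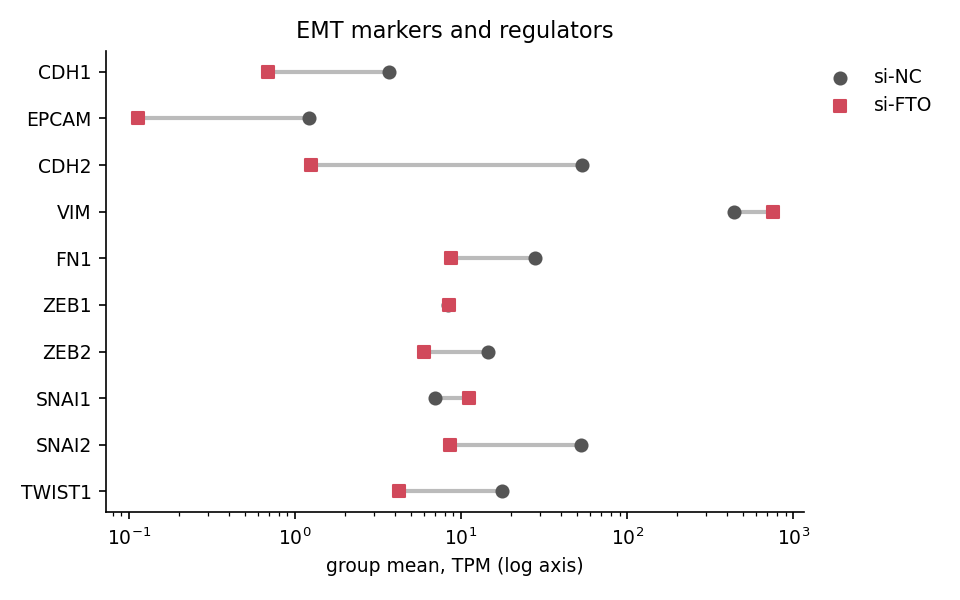
Group means in TPM (log axis) of the 10 EMT genes, circles for si-NC and squares for si-FTO, joined by a line for each gene, with no error since each group has 1 mean. VIM is highest and EPCAM lowest in both groups, CDH2 moves farthest, from 53.7 to 1.25 TPM, and the symbols of ZEB1 coincide.

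The median log2 ratio over all genes compared was -0.20, and it was -0.02 when the group means were scaled to each other by their median ratio. Set against the median of -0.20, the members ranged from -4.41 for CDH2 to 0.97 for VIM, and ZEB1 lay 0.22 above it. CDH2 had a lower log2 ratio than all but 0.586% of the genes compared, and SNAI2 than all but 4.09%. At the other end, 14.8% of genes compared had a higher log2 ratio than VIM.

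**Figure D2:**
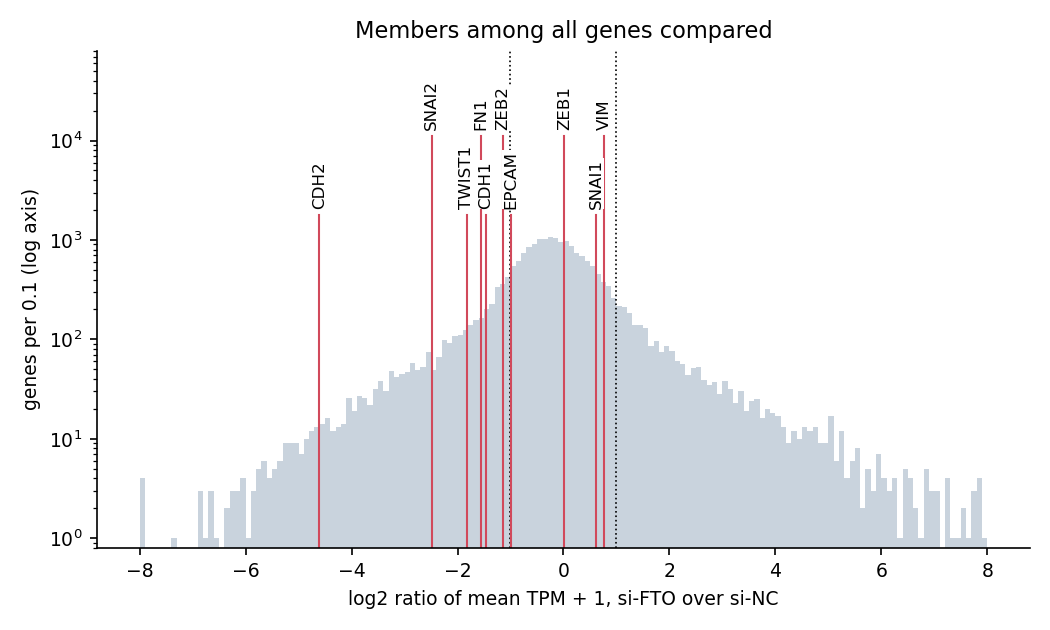
Number of genes per 0.1 unit (log axis) by log2 ratio of mean TPM + 1, si-FTO over si-NC, for the 20493 genes compared, values beyond the axis gathered in the outermost bars. Red lines mark the 10 EMT genes and dotted lines a log2 ratio of 1 in size; 6 members lie left of the lower dotted line and none right of the upper.

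The epithelial adhesion genes were low in both groups and lower in si-FTO. CDH1 (ENSG00000039068, chr16:68771195-68869440, plus strand, 16 exons) encodes E-cadherin, the calcium-dependent adhesion molecule of adherens junctions. Its mean was 3.67 TPM in si-NC against 0.685 TPM in si-FTO (log2 ratio -1.47), a 5.36-fold lower mean. EPCAM (ENSG00000119888, chr2:47572297-47614740, plus strand, 9 exons) encodes a surface glycoprotein of epithelial cells. It had 1.22 TPM in si-NC against 0.113 TPM in si-FTO, and its log2 ratio of -0.99 fell just short of the fold because 1 TPM is added to so low a level. Its log2 ratio with 0.1 TPM added was -2.63. Together the pair summed to 4.89 TPM in si-NC against 0.798 TPM in si-FTO. In si-NC only 37.7% of the genes compared had a lower mean than CDH1, and in si-FTO 19.9%. This epithelial hallmark thus lay in the lower range of the genes compared in both. In the whole table, 12774 genes were above it in si-NC and 16404 in si-FTO.

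The mesenchymal markers did not move together. CDH2 (ENSG00000170558, chr18:25512843-25757910, minus strand, 16 exons) encodes N-cadherin, which many cells gain as E-cadherin is lost. It was the second most abundant of the 10 genes in si-NC at 53.7 TPM and had 1.25 TPM in si-FTO, a 43.2-fold lower mean and a log2 ratio of -4.61. FN1 (ENSG00000115414, chr2:216225163-216300796, minus strand, 46 exons) encodes fibronectin, a matrix glycoprotein. Its mean was 27.7 TPM in si-NC against 8.74 TPM in si-FTO, with a log2 ratio of -1.56.

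VIM (ENSG00000026025, chr10:17270240-17279592, plus strand, 10 exons) encodes vimentin, the intermediate filament protein of mesenchymal cells. At 439.9 TPM in si-NC against 752.0 TPM in si-FTO it was the most abundant member in both groups, with only 269 and 175 genes of the table above it. Its log2 ratio of 0.77 did not pass the fold. As VIM made up most of the sum, the mesenchymal markers together stood at 521 TPM in si-NC against 762 TPM in si-FTO even though CDH2 and FN1 were lower.

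Ratios of TPM within a group set these levels side by side. CDH2 had 14.6 times the level of CDH1 in si-NC and 1.82 times in si-FTO, so both cadherins were lower and the excess of N-cadherin over E-cadherin RNA shrank. VIM stood at 120 times CDH1 in si-NC and 1098 times in si-FTO. Against CDH2, VIM was at 8.19 times in si-NC and 604 times in si-FTO.

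Of the 5 transcription factors 3 were lower past the fold in si-FTO, against 17.0% of all genes, and ZEB2 was no longer among them after median-ratio scaling or quantile normalization. SNAI2 (ENSG00000019549, chr8:49830157-49834299, minus strand, 3 exons) encodes SLUG, a zinc finger repressor of E-cadherin. It was the most abundant of the 5 in si-NC at 52.5 TPM and had 8.55 TPM in si-FTO (log2 ratio -2.49). SNAI1 (ENSG00000124216, chr20:48599517-48605423, plus strand, 3 exons) encodes SNAIL, its closest relative among the 10. SNAI1 had 6.95 TPM in si-NC against 11.2 TPM in si-FTO (log2 ratio 0.62) and did not pass the fold. SNAI2 thus had 7.56 times the level of SNAI1 in si-NC and 0.764 times in si-FTO, so the order of these paralogs differed between the groups.

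TWIST1 (ENSG00000122691, chr7:19060614-19157259, minus strand, 2 exons) encodes a basic helix-loop-helix factor of mesoderm and neural crest. Its mean was 17.6 TPM in si-NC against 4.24 TPM in si-FTO (log2 ratio -1.83). ZEB2 (ENSG00000169554, chr2:145121931-145278624, minus strand, 10 exons) and ZEB1 (ENSG00000148516, chr10:31607424-31818742, plus strand, 9 exons) encode zinc finger homeobox repressors. ZEB2 had 14.4 TPM in si-NC against 5.96 TPM in si-FTO, with a log2 ratio of -1.15 that was -0.96 after median-ratio scaling and -0.97 after quantile normalization. ZEB1 was nearly equal in both, at 8.37 and 8.47 TPM, a log2 ratio of 0.01. ZEB2 stood at 1.72 times ZEB1 in si-NC but 0.704 times in si-FTO, another pair whose order differed. Summed, the 5 factors had 99.9 TPM in si-NC against 38.4 TPM in si-FTO.

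In si-NC the order of levels was VIM, CDH2, SNAI2, FN1, TWIST1, ZEB2, ZEB1, SNAI1, CDH1 and EPCAM. In si-FTO it was VIM, SNAI1, FN1, SNAI2, ZEB1, ZEB2, TWIST1, CDH2, CDH1 and EPCAM. VIM led and CDH1 and EPCAM closed the order in both, whereas CDH2 went from rank 2 to rank 8 and SNAI1 from rank 8 to rank 2. With no spread between libraries, whether neighbours such as FN1, SNAI2 and ZEB1 in si-FTO (8.74, 8.55 and 8.47 TPM) differ cannot be told. At least 1 TPM was reached by all 10 genes in si-NC and by 8 in si-FTO.

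The microRNAs that target the ZEB genes are shown with their seeds because ZEB1 and ZEB2 carry many matches to them. RefSeq (GRCh38.p14) mature sequences are given with the seed, bases 2 to 8, in capitals, first the group sharing 1 seed and then the group sharing the other.
miR-200b-3p: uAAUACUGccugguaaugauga
miR-200c-3p: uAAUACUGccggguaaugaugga
miR-429: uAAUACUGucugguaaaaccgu
miR-200a-3p: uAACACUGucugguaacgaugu
miR-141-3p: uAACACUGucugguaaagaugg

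The 3′ UTRs of ZEB1 and ZEB2 held 9 matches each to the reverse complement of these seeds, CAGTATT or CAGTGTT. ZEB1 had 6 of the first and 3 of the second in 2540 bases, and ZEB2 had 5 and 4 in 5370 bases. Over the canonical coding transcripts of 19085 genes, 28.4% of 3′ UTRs held at least 1 match and 8 held at least 9. Among 3′ UTRs of 0.8 to 1.2 times its length, ZEB1 was the only 1 of 2354 with so many, and ZEB2 was among 2 of 1145. FN1 had 2 matches and SNAI2 had 1, while CDH1, EPCAM, CDH2, VIM, SNAI1 and TWIST1 had 0 in theirs. The match nearest the stop codon for each seed is shown with up to 30 bases around it, read from GRCh37, with the match in capitals.
ZEB1, first seed, chr10:31816546-31816575, plus strand, 3′ UTR: attgttttatcttatCAGTATTatcactct
ZEB1, other seed, chr10:31816959-31816988, plus strand, 3′ UTR: caaaatcatcagaatCAGTGTTtgtgattg
ZEB2, first seed, chr2:145146612-145146641, minus strand, 3′ UTR: cgcactaccatacatCAGTATTtttattat
ZEB2, other seed, chr2:145146796-145146825, minus strand, 3′ UTR: tgcaaaaattttgtaCAGTGTTaaggccta

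Of the miR-200 host and precursor genes listed, and of MIR205HG, the host of miR-205, which has another seed, none reached the level for comparison. MIR200CHG, MIR200C, MIR141, MIR200A, MIR200B and MIR429 were listed at 0 in both groups, and MIR205HG stood at 0.000581 TPM in si-NC and was listed at 0 in si-FTO. A gene table of this kind does not measure mature microRNAs, and a match to a seed is a description of the letters, not a site of repression.

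Promoter windows of 250 bases before to 50 after a start site were present in RefSeq for 5 of the 10 genes (CDH2, VIM, FN1, ZEB1 and ZEB2), in 12 windows. No entry was given for CDH1, EPCAM, SNAI1, SNAI2 and TWIST1. The windows were searched on both strands for CAGGTG, which reads CACCTG on the other strand, and for CANNTG, of which CAGGTG is 1 case. Both are forms of the E-box to which SNAIL, ZEB and TWIST factors bind. Of 35116 RefSeq promoter windows, 20.6% held CAGGTG or CACCTG and 68.7% held CANNTG. Among the members only ZEB1 had the first, with 4 matches in 2 of its 7 windows, the nearest to a start site beginning 33 bases after it.

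The windows of CDH2, FN1 and ZEB2 are shown because these are the members past the fold with an entry. Each is a RefSeq promoter from the GRCh38.p14 table, placed on GRCh37 by an exact match of its letters, 5′ to 3′ on the minus strand, with CANNTG in capitals.
CDH2, first window, chr18:25757045-25757344: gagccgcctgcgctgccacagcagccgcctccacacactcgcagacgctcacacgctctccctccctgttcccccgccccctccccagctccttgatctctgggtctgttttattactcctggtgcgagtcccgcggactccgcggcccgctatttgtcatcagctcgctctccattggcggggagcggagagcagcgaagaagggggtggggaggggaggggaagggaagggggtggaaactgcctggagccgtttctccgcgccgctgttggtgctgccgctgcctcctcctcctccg
CDH2, other window, chr18:25616556-25616855: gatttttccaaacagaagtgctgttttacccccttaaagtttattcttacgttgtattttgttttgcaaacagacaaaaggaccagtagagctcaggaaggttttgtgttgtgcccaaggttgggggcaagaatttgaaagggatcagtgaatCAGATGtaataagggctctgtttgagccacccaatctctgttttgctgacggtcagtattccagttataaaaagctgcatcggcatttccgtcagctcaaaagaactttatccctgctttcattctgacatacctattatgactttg
FN1, chr2:216300742-216301041: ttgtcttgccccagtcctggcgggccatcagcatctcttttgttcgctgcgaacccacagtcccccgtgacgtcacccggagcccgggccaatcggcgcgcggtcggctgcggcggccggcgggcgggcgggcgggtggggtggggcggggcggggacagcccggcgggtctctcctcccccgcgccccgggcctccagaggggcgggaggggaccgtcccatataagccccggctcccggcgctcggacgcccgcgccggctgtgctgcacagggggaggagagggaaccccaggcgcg
ZEB2, chr2:145277637-145277936: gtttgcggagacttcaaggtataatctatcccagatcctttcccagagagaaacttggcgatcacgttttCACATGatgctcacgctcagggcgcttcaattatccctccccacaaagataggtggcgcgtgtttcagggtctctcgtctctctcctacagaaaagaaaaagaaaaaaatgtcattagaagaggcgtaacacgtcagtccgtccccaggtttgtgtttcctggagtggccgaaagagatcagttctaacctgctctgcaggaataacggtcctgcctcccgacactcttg

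The first CDH2 window and the FN1 window held no CANNTG, the other CDH2 window held 1 (CAGATG) and ZEB2 held 1 (CACATG). These windows differed in base composition: 76.7% of bases were G or C in FN1 with 38 CpG pairs, 67.0% with 23 in the first CDH2 window, 49.0% with 14 in ZEB2 and 40.7% with 4 in the other CDH2 window. The medians over all windows were 58.7% and 14.

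The nearest genes on either side of each member with at least 1 TPM in a group gave 20 neighbours, of which 4 were lower and 1 higher past the fold, against 17.0% and 11.4% of all genes. CDH3, which encodes P-cadherin and ends 9.82 kb before CDH1, had 1.32 TPM in si-NC against 0.152 TPM in si-FTO (log2 ratio -1.01), while TANGO6 on the other side had 14.1 and 14.8 TPM. DSC3, the next expressed gene beyond the start of CDH2 at 2811 kb, had 20.9 TPM in si-NC against 0.962 TPM in si-FTO, and KCTD1 on the other side had 19.9 and 19.2 TPM. Beside FN1, MREG had 16.5 TPM in si-NC against 5.07 TPM in si-FTO. BCYRN1 before EPCAM had 8.78 and 3.16 TPM, an uncertain value because near-identical copies of this RNA exist elsewhere. HACD1, beyond VIM, was the neighbour that was higher, at 17.4 and 61.7 TPM. Both neighbours of ZEB1, ZEB2, SNAI1, SNAI2 and TWIST1 stayed within the fold.

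Antisense RNAs overlap several members. ZEB1-AS1 had 8.10 TPM in si-NC against 3.21 TPM in si-FTO, lower past the fold beside a flat ZEB1. VIM-AS1 had 4.32 and 3.48 TPM, and another RNA opposite VIM (ENSG00000234961) had 3.25 and 4.69 TPM. ZEB2-AS1 had 0.573 TPM and was listed at 0 in si-FTO. These did not pass the fold, nor did SNAI3-AS1, the antisense gene of a SNAIL relative outside the 10, at 3.71 and 2.69 TPM. The libraries were stranded, but whether strand was used in quantification was not given in the sources used here, so reads of these genes and of their partners may not be separated.

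Genes listed as other EMT transcription factors, a list that also holds an inhibitor of such factors, were mostly lower as well. Of 19 listed, 18 were compared, 10 lower and 1 higher past the fold (17.0% and 11.4% over all genes), with a median log2 ratio of -1.50 against -0.20 over all genes. ID2, counted among the lower genes of the list, encodes an inhibitor of basic helix-loop-helix factors, the class of TWIST1. It had 175 TPM in si-NC against 0.584 TPM in si-FTO. HMGA2, an architectural chromatin protein, had 59.6 and 0.488 TPM. TCF4 (10.2 and 0.00874 TPM) was lower too, and the homeobox gene GSC had 4.76 TPM in si-NC and was listed at 0 in si-FTO. TWIST2, the paralog of TWIST1, was the exception at 8.57 TPM in si-NC against 29.8 TPM in si-FTO. ID3 was the most abundant of the list in both, at 213 and 122 TPM.

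Epithelial transcription and splicing factors showed 4 genes higher and 0 lower past the fold among 8 compared of 16 listed (11.4% and 17.0% over all genes), with a median log2 ratio of 1.02. ELF3, an epithelial ETS factor, had 0.115 TPM in si-NC against 93.3 TPM in si-FTO. ESRP2, an epithelial splicing regulator, had 2.44 and 26.0 TPM, KLF5 12.4 and 43.8 TPM, and FOXA1 8.24 and 19.5 TPM. The other 8 listed genes, among them GRHL2, ESRP1, OVOL1 and FOXA2, stayed below the level for comparison in both groups. With those 8 kept in, the median was 0. CDH1 was thus lower in the group in which these 4 factors were higher.

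**Figure D3:**
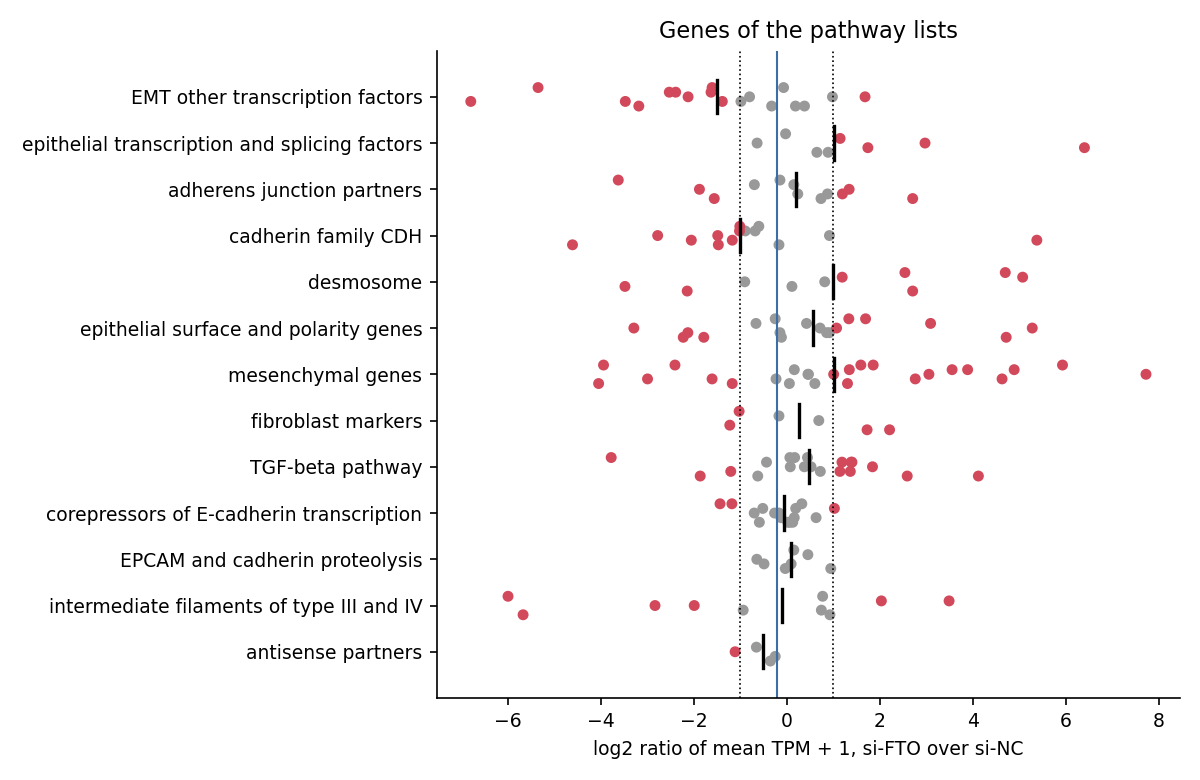
Log2 ratio of mean TPM + 1, si-FTO over si-NC, for each gene compared in the pathway lists, red past the fold and grey not, with a black bar at each list's median, a blue line at the median of all genes (-0.20) and dotted lines at a ratio of 1 in size. The other EMT transcription factors have their median at -1.50 and the mesenchymal genes at 1.01.

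Past the fold, cadherin genes were lower with the exception of CDH5. Of 23 listed, 14 were compared, 8 lower and 1 higher past the fold (17.0% and 11.4% over all genes), with a median log2 ratio of -1.01. This was -0.95 after median-ratio scaling, -0.85 after quantile normalization, -2.83 with 0.1 TPM added and -0.34 over all 23. With nothing added and no minimum, the median was -5.99. CDH1 and CDH2 are among the 8. CDH12 had 5.85 TPM in si-NC, CDH7 1.80 TPM and CDH10 1.25 TPM, and all of them were listed at 0 in si-FTO, while CDH23 had 3.28 and 0.0330 TPM. CDH5, the cadherin of endothelial junctions, had 0.00827 TPM in si-NC against 40.9 TPM in si-FTO, where it was the most abundant cadherin. CDH24 had 15.5 and 30.1 TPM and did not pass the fold. Summed over the 23 genes, cadherin RNA was 90.7 TPM in si-NC against 73.7 TPM in si-FTO, so the total differed less than its makeup.

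**Figure D4:**
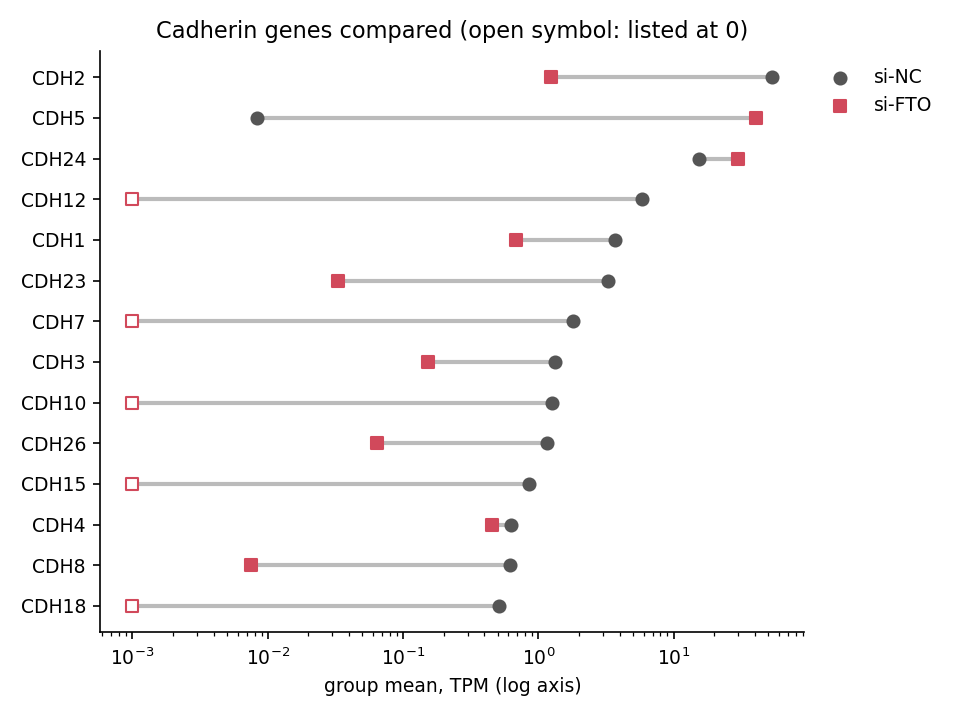
Group means in TPM (log axis) of the 14 cadherin genes compared, circles for si-NC and squares for si-FTO, open squares at the left edge for genes listed at 0. CDH2 leads in si-NC at 53.7 TPM and CDH5 in si-FTO at 40.9 TPM.

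Other adherens junction genes, which encode partners of cadherins inside the cell and the nectins of the cell surface, were split. Of 13 adherens junction genes, 12 were compared, 3 higher and 3 lower past the fold (11.4% and 17.0% over all genes), with a median log2 ratio of 0.19. JUP, which encodes plakoglobin, had 55.4 TPM in si-NC against 368 TPM in si-FTO, CTNNA1 (alpha-catenin) had 117 and 299 TPM, and AJUBA had 15.5 and 36.8 TPM. NECTIN3 (21.0 and 0.786 TPM), NECTIN1 (19.7 and 4.64 TPM) and AFDN (97.8 and 32.5 TPM) were lower. These encode surface nectins and the afadin that binds them inside the cell. NECTIN2 had 79.5 and 88.4 TPM without passing the fold, and NECTIN4 was not compared. CTNNB1, which encodes beta-catenin and was the most abundant in si-NC, had 321 and 198 TPM and did not pass the fold.

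Desmosome genes had 5 higher and 2 lower past the fold among 10 compared of 15 listed (11.4% and 17.0% over all genes), with a median log2 ratio of 1.00. Over all 15 the median was 0.0096, and 0.11 with nothing added as well. PKP3 (0.949 and 64.6 TPM), PPL (0.478 and 37.4 TPM), EVPL (0.00755 and 4.86 TPM) and DSP (54.6 and 126 TPM), which encode plaque proteins, were higher, as was JUP, which is on both lists. The desmosomal cadherins DSC3 and DSC2 were lower, DSC2 with a log2 ratio of -2.14, and DSG2 had 103 and 54.6 TPM without passing.

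Epithelial surface and polarity genes were split. Of 22 listed, 18 were compared, 6 higher and 4 lower past the fold (11.4% and 17.0% over all genes), with a median log2 ratio of 0.57 that was 0.19 over all 22. The protease gene ST14 had 0.0376 TPM in si-NC against 39.3 TPM in si-FTO, AP1M2 had 0.128 and 28.7 TPM, and MAL2 had 0.946 and 15.6 TPM. S100A14 (0.0165 and 2.29 TPM) and ERBB3 (4.99 and 14.1 TPM) were also higher. CDS1 (10.4 and 0.168 TPM), SPINT2 (38.2 and 7.99 TPM) and MARVELD3 (2.77 and 0.0936 TPM) were lower, and GALNT3 had 3.68 TPM in si-NC and was listed at 0 in si-FTO.

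Mesenchymal genes other than the members were more often higher. Of 27 listed, 25 were compared, 13 higher and 6 lower past the fold (11.4% and 17.0% over all genes), with a median log2 ratio of 1.01 that was 0.60 over all 27. S100A4, a calcium-binding protein also called FSP1, had 3.13 TPM in si-NC against 872 TPM in si-FTO. The myosin light chain gene MYL9 had 0.0217 and 61.3 TPM, the hyaluronan receptor gene CD44 had 2.22 and 94.5 TPM, the receptor kinase gene AXL had 0.151 and 27.5 TPM, and the tropomyosin gene TPM2 had 11.0 and 177 TPM. Genes of the matrix, its proteases and adhesion differed in both directions. Besides CD44, FBN1 (4.24 and 11.95 TPM), LOXL2 (9.65 and 37.6 TPM) and MMP9 (0.0432 and 1.10 TPM) were higher past the fold. Other genes of these kinds were lower past the fold. VCAN had 14.3 TPM in si-NC and was listed at 0 in si-FTO, NCAM1 had 16.0 and 0.0288 TPM, MMP2 7.21 and 0.0305 TPM, SPARC 114 and 20.7 TPM, and TNC 2.32 and 0.0923 TPM. Of the contractile genes on the list TPM2 and MYL9 were higher, while TPM1 (log2 ratio 0.46), CALD1 (0.47), ACTA2 (0.60) and TAGLN (0.06) did not pass the fold and CNN1 was not compared. MSN, which encodes the cortical protein moesin, had 115 and 294 TPM.

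TGF-beta, a known inducer of EMT, signals through type I and II receptors to SMAD2 and SMAD3, which act with SMAD4. Of its 20 listed genes all were compared, 8 higher and 3 lower past the fold, with a median log2 ratio of 0.48. Over all genes 11.4% were higher and 17.0% lower, and the count of lower genes was near that share. The co-receptor gene ENG had 1.45 TPM in si-NC against 41.6 TPM in si-FTO, the ligand gene TGFB2 had 0.693 and 9.20 TPM, and the receptor gene TGFBR2 had 8.26 and 23.5 TPM. SMAD2 (11.4 and 43.6 TPM) and SMAD3 (16.8 and 45.4 TPM) were higher. SMAD4 had 12.7 TPM in si-NC and was listed at 0 in si-FTO. The inhibitory SMAD6 (35.9 and 9.16 TPM) and SMAD7 (16.1 and 6.42 TPM) were lower, and TGFB1 had 36.1 and 40.7 TPM.

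Among 16 corepressors and chromatin enzymes known from repression of the E-cadherin gene, all of them compared, 1 was higher and 2 lower past the fold. Over all genes 11.4% were higher and 17.0% lower, so these counts are near the background. The list had a median log2 ratio of -0.05 that was 0.16 after median-ratio scaling and -0.11 after quantile normalization. DNMT3A had 9.77 TPM in si-NC against 20.9 TPM in si-FTO, while DNMT3B had 34.5 and 12.1 TPM and HDAC2 had 72.7 and 31.5 TPM, so the DNA methyltransferases of the DNMT3 pair differed in opposite directions. The Polycomb gene EZH2 had 56.8 and 50.5 TPM, and HDAC1 and KDM1A were the most abundant, HDAC1 with 225 TPM in si-NC and KDM1A with 179 TPM in si-FTO.

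**Figure D5:**
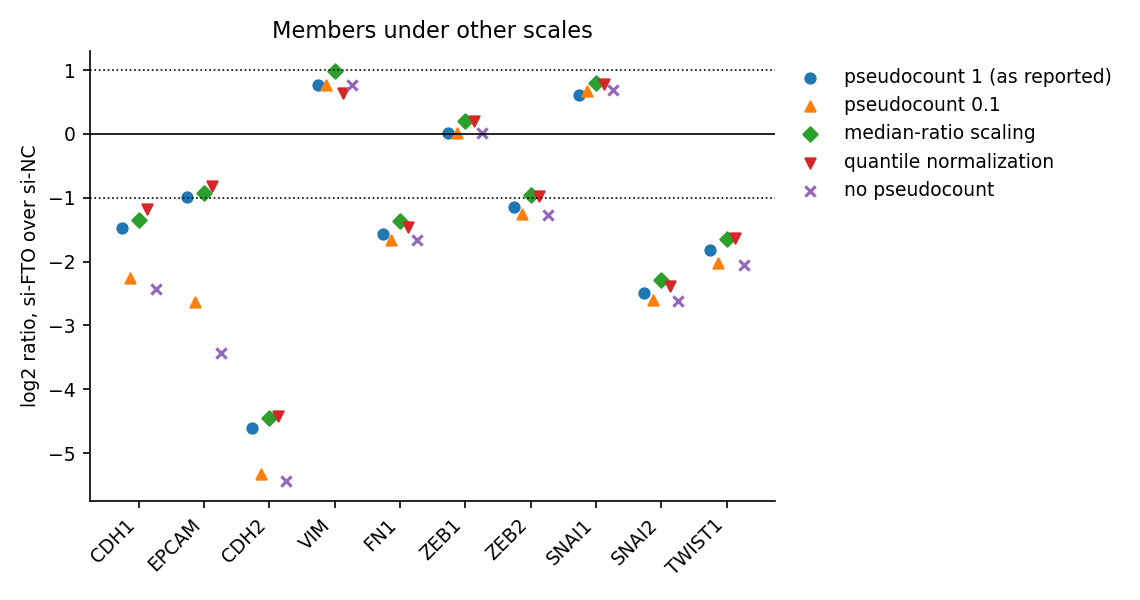
Log2 ratio of si-FTO over si-NC for each EMT gene with the pseudocount of 1 TPM and with 4 other scales, dotted lines at a ratio of 1 in size. No gene changes side of 0 after median-ratio scaling or quantile normalization, and another pseudocount cannot turn a sign. CDH1 and EPCAM move most with the pseudocount (EPCAM from -0.99 to -3.43 with none), and ZEB2 lies at the fold.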

How the data were processed

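Per the study's methods, reads were mapped to hg19 with Bowtie and quantified with RSEM, while the submitters' processing notes name HISAT2; the annotation was not given in the sources used here. The table deposited by the authors gives TPM, averaged over the libraries of each group. Their fold changes, p-values and q-values, and a second table of genes chosen by them, were not used. A value of 0.0001 was read as 0.

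Symbols were found for 55726 of 58174 identifiers (95.8%). The log2 ratio, counts and medians were computed with Python 3.11.15, numpy 2.4.6 and pandas 2.3.3 and drawn with matplotlib 3.10.9, after the calculation was tested on simulated data. A limma fit was planned for values of single libraries; none was made on group means. Positions came from GENCODE lifted to GRCh37, the build of hg19.

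The members and lists were chosen with earlier results of these data known. Named genes are the members, their neighbours, and of each list up to 5 per direction past the fold, its most abundant gene and those grouped by role; the microRNA sequences and seed matches were added later. Alternatives were other pseudocounts, minimums, scalings and folds. PECAM1 was not matched, and 2 listed genes are not reported here by name.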

Additional observations from a re-analysis of the deposited data

How the results depend on the processing

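No paired analysis was possible because the table holds 1 mean per group, and for the same reason leaving out each library in turn and the fit with the replicate number as a block were not run. Each of the 10 members kept its sign after median-ratio scaling and after quantile normalization. The other alternatives among the 8 changed the pseudocount, the minimum or the fold, which cannot turn a sign. With a minimum of 5 TPM, CDH1 and EPCAM were not compared. Depth, and with it the precision of low means such as those of EPCAM and CDH1, is unknown.

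With the fold raised to a log2 ratio of 2, 2 members were lower (CDH2 and SNAI2), CDH1 (-1.47), FN1 (-1.56), ZEB2 (-1.15) and TWIST1 (-1.83) no longer passed, 976 of all genes were higher and 1241 lower, and 23 list genes were higher and 24 lower, where the main values were 45 and 45. With the fold lowered to 1.5-fold, VIM (0.77) and SNAI1 (0.62) passed, making 2 members higher, EPCAM (-0.99) passed as lower, and 3855 of all genes were higher and 6396 lower. These follow from the threshold itself. With 0.1 TPM added EPCAM passed at -2.63. With 0.0001 kept as printed, nothing added and no minimum, so that 58174 genes were compared, EPCAM passed at -3.43, 7501 of all genes were higher and 12118 lower, and 56 list genes were higher and 72 lower. With a minimum of 5 TPM, 1730 of all genes were higher and 2254 lower, and 41 list genes were higher and 28 lower, with fewer genes compared (12967). List genes numbered 53 higher and 40 lower after median-ratio scaling and 51 and 39 after quantile normalization. ZEB2 did not pass after median-ratio scaling (-0.96) or quantile normalization (-0.97); the cause was not tested.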

Other observations

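Intermediate filaments of type III, the class of vimentin, and of type IV, the class of the neurofilaments, had 2 genes higher and 4 lower past the fold among 10 (11.4% and 17.0% over all genes), with a median log2 ratio of -0.10. This median was 0.02 after median-ratio scaling, -0.83 with 0.1 TPM added, -1.03 with a minimum of 5 TPM and -1.17 with nothing added and no minimum. The neurofilament genes NEFL and NEFM had 62.7 and 49.9 TPM in si-NC and were both listed at 0 in si-FTO, INA (internexin) had 7.72 and 0.224 TPM, and PRPH (peripherin) had 3.81 and 0.210 TPM. NEFH, the heavy neurofilament gene, was higher instead, at 0.242 TPM in si-NC against 13.0 TPM in si-FTO, and SYNM, which encodes synemin, had 3.94 and 19.2 TPM. Vimentin stayed the most abundant filament of the list in both groups.

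Of 7 listed genes for proteases that shed and cleave EPCAM and cadherins, 0 passed the fold, against 28.5% of all genes in either direction. Their median log2 ratio was 0.09. ADAM10 had 8.68 TPM in si-NC against 17.7 TPM in si-FTO, and ADAM17 had 14.5 and 15.5 TPM. Of the listed gamma-secretase genes, APH1A, the most abundant in si-NC, had 134 and 85.7 TPM. NCSTN had 100.2 and 138 TPM, and PSENEN had 39.2 and 27.7 TPM. APH1B, a gamma-secretase gene not listed, had 4.44 and 11.7 TPM (log2 ratio 1.22), higher past the fold.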
